A study of Schizosaccharomyces pombe with 12 samples.

Results

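The comparison sets 3 libraries of fission yeast cells that lack ntu2 (ntu2_KO) against 3 libraries of an h+ wild type (ntu_WT), 6 of the 12 libraries of the series. The libraries were chosen by their column names, and all tested genes entered the comparison. The ntu2_KO cells carry ntu2D::kanMX, a replacement of ntu2 by a drug-resistance cassette, together with ade6-M216, while the ntu_WT cells carry ade6-M210. Both groups are h+ and share the alleles leu1-32 and ura4-D18. They thus differ in the ade6 allele as well as in ntu2, and the effects of these differences cannot be told apart here. The ade6 transcript itself had 196.9, 190.9 and 198.4 CPM (counts scaled to library size) in ntu2_KO, against 201, 186.9 and 193.4 CPM in ntu_WT, and the groups overlapped. A deletion of ntu1 (ntu1_KO, ntu1D::kanMX) otherwise has the mating type and marker alleles of ntu2_KO. An h- wild type (wt_WT) carries ade6-704 beside leu1-32 and ura4-D18. Both are used below to place the values of ntu2_KO. The ntu1_KO libraries also entered the fit behind the main test, and so share in its estimate of the spread.

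The series asks how transcript levels differ between wild-type cells and cells without ntu1 or ntu2. Schizosaccharomyces pombe, a rod-shaped yeast that divides by fission, was kept in exponential growth in the rich medium YES at 30 °C. Messenger RNA libraries were made from 300 ng of total RNA with a stranded kit. The labels do not say whether the 3 replicates of a group are separate cultures or separate deletion clones, so the p-values measure the spread between these libraries, which may be technical.

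The annotation describes the ntu2 product as a membrane-tethered transcription factor, a protein held in a membrane that also carries a DNA-binding domain. Fission yeast has no route to NAD from tryptophan and takes up precursors such as nicotinic acid through plasma membrane carriers. Serine supplies carbon units bound to folate, which pass through methionine to S-adenosylmethionine, the methyl donor for phospholipids, proteins and RNA.

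The ntu2_KO libraries held 3177147, 6156993 and 5854666 counts, and the ntu_WT libraries held 5998569, 7556338 and 7265948 counts. Ribosomal RNA took 3.64%, 2.64% and 1.43% of the counts in ntu2_KO and 2.66%, 2.38% and 2.56% in ntu_WT. Over all tested genes, the median absolute log2 difference was 0.136 between replicates 1 and 2, 0.164 between 1 and 3 and 0.175 between 2 and 3. Between replicate 3 and the 3 ntu_WT libraries it was 0.104 to 0.138, so by this median replicate 3 was nearer to each ntu_WT library than to the other ntu2_KO libraries. Replicate 2, at 0.126 from ntu_WT replicate 1, was also nearer to that library than to its own group. The root mean square of the differences gave another order, with 0.388 between replicates 2 and 3, 0.393 between 1 and 2 and 0.435 between 1 and 3. To the ntu_WT libraries it was 0.429 to 0.44 from replicate 1, 0.392 to 0.427 from replicate 2 and 0.361 to 0.406 from replicate 3. To the ntu1_KO libraries, replicate 3 had medians of 0.1013 to 0.1225 and root mean squares of 0.341 to 0.366.

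The deleted gene was low in all 3 ntu2_KO libraries. ntu2 (SPBC530.08, chromosome II) had 46.7, 52 and 37.5 CPM in ntu2_KO, against 229.6, 221.4 and 200.7 CPM in ntu_WT. The groups did not overlap, and the log2 fold change was -2.26 ± 0.11 (SE, n = 3 each), with an adjusted p of 4.98e-08 in edgeR's quasi-likelihood test with Benjamini-Hochberg adjustment. The ntu2_KO mean was thus a fraction of 0.209 of the ntu_WT mean and not 0, and which part of the gene the remaining counts come from was not analysed here. The gene mrl1, a sorting receptor gene that overlaps ntu2 on the opposite strand, had a log2 fold change of -0.04 ± 0.10. The neighbour SPBC530.07c had -0.09 ± 0.08, and neither passed the test.

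Of 5808 genes tested, 44 (0.758%) passed at an adjusted p under 0.05, 26 higher (0.448%) and 18 lower (0.31%) in ntu2_KO. The changes were mostly small: 9 genes (0.155%) changed at least 2-fold, and the other 35 had absolute log2 fold changes of 0.27 to 0.99. In all 44 genes the 3 ntu2_KO libraries lay on one side of the 3 ntu_WT libraries, which 770 of all tested genes (13.3%) did, 6.75% higher and 6.51% lower. The median log2 fold change over all genes was 0.00. At an unadjusted p under 0.05 there were 526 genes (9.06%).

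**Figure D1:**
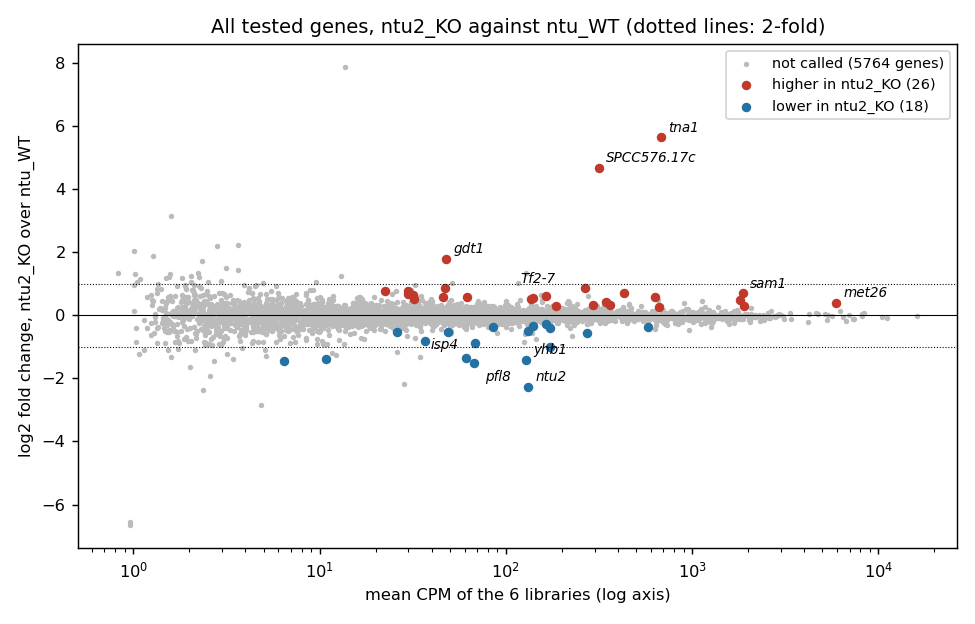
Log2 fold change of ntu2_KO over ntu_WT against the mean CPM of the 6 libraries on a log axis, for the 5808 genes tested. Red points are the 26 genes called higher and blue points the 18 called lower in ntu2_KO. Grey points were not called, and the dotted lines mark 2-fold. The genes tna1 and SPCC576.17c stand above all other called genes.

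A pair of vitamin carriers had the largest changes. tna1 (SPAC1002.16c, chromosome I), a plasma membrane transporter of nicotinic acid, had 1205, 1485 and 1308 CPM in ntu2_KO, against 27.9, 28.4 and 23.2 CPM in ntu_WT. The log2 fold change was 5.65 ± 0.10, a 50.3-fold difference, at an adjusted p of 1.15e-15 in edgeR. SPCC576.17c, on chromosome III, is described as a carrier of pyridoxine, pyridoxal and pyridoxamine, the forms of vitamin B6. It had 573.7, 645.1 and 603 CPM in ntu2_KO, against 29.8, 22.5 and 19.6 CPM in ntu_WT. That is 25.6-fold higher (log2 fold change 4.68 ± 0.11, edgeR adjusted p 4.01e-12).

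Per transcript length, tna1 reached 841, 1023 and 866.6 TPM (the deposited values scaled by transcript length) in ntu2_KO, against 18.9, 19.1 and 15 TPM in ntu_WT. By mean TPM it ranked 233 of 6936 genes in ntu2_KO and 4372 in ntu_WT. SPCC576.17c had 301.8, 336.4 and 302.7 TPM in ntu2_KO, against 15.2, 11.5 and 9.67 TPM in ntu_WT, which placed it at rank 493 in ntu2_KO and 4775 in ntu_WT. No library of either group came near the other group for these carriers, and both were called with any of the 6 libraries left out.

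The other 9 carriers of the list of vitamin and nicotinic acid transporters did not pass the test. Over the 11 genes the median log2 fold change was 0.10, against 0.00 over all genes. SPBC1683.12, also annotated as a nicotinic acid transporter, had 28.8, 19.2 and 29.2 CPM in ntu2_KO, against 25.6, 19.5 and 25.7 CPM in ntu_WT, with overlapping groups. bsu1, an import carrier of vitamin B6, had a log2 fold change of 0.01 ± 0.15. vht1, the biotin carrier, had 0.27 ± 0.18, and its ntu2_KO replicate 1, at 1945 CPM, was higher than the other libraries, which had 1173 to 1391 CPM.

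None of the 8 genes of NAD synthesis and salvage passed, and their log2 fold changes had a median of 0.01. npt1, which joins nicotinic acid to a ribose phosphate in the first step after uptake, had 171.8, 190.7 and 163.7 CPM in ntu2_KO and 176.3, 174.2 and 174.5 CPM in ntu_WT. The nicotinamidase gene pnc1 had a log2 fold change of 0.06 ± 0.11, and the NAD synthetase gene qns1 had -0.02 ± 0.07. Of 11 genes of thiamine and vitamin B6, none passed either. Among them snz1, a subunit of pyridoxal phosphate synthase, had 1036, 1012 and 989.4 CPM in ntu2_KO, against 945.5, 865.1 and 849.6 CPM in ntu_WT (0.19 ± 0.06 on the log2 scale, adjusted p 0.192 in edgeR).

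**Figure D2:**
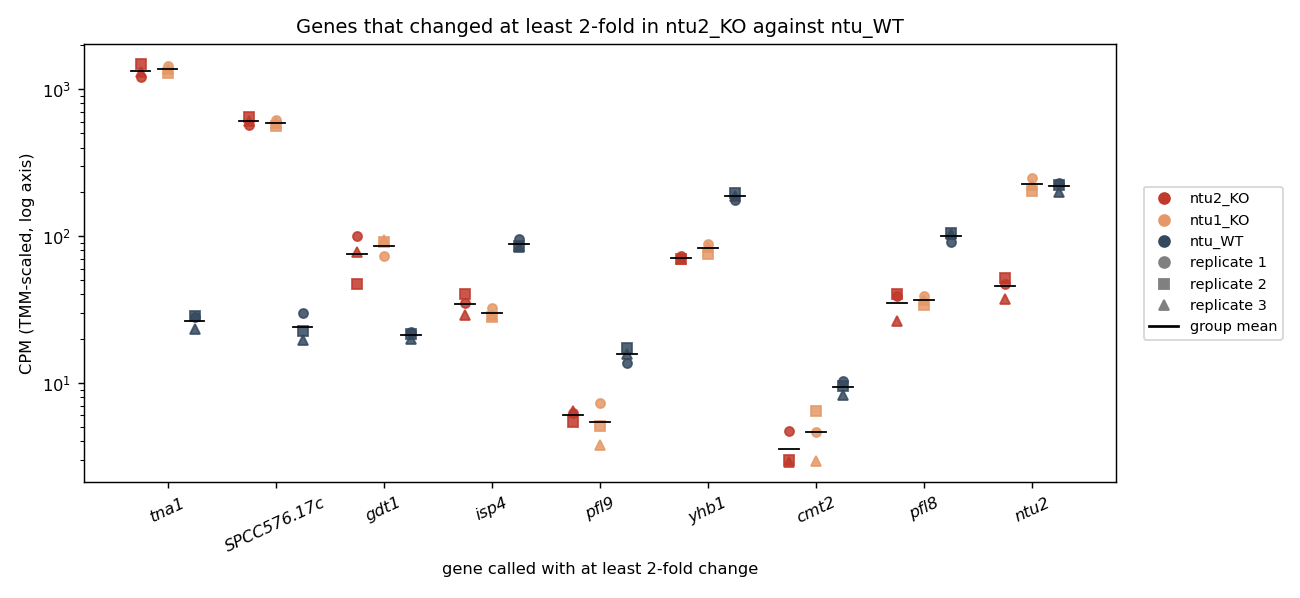
CPM on a log axis for the 9 genes called with at least 2-fold change, in ntu2_KO (red), ntu1_KO (orange) and ntu_WT (dark blue), with the replicates as circles, squares and triangles and the group mean as a line. In each gene the 3 ntu2_KO points lie apart from the 3 ntu_WT points, from 1205 CPM and above against 28.4 CPM and below for tna1 to 4.7 CPM and below against 8.29 CPM and above for cmt2.

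The genes beside tna1 differed by much less. urg3, a gene named for its regulation by uracil, had 180, 171.6 and 148.1 CPM in ntu2_KO, against 119.4, 115.1 and 106.9 CPM in ntu_WT (log2 fold change 0.54 ± 0.09, edgeR adjusted p 0.00988). Between the pair lies urg2, annotated as a uracil phosphoribosyltransferase, with 145.2, 180.3 and 141.6 CPM in ntu2_KO, against 92.2, 76.7 and 64.8 CPM in ntu_WT. Its groups did not overlap, but with a log2 fold change of 1.01 ± 0.20 it missed the threshold (adjusted p 0.122). Of the 11 genes of pyrimidine synthesis and uracil regulation urg3 was the only 1 that passed. Its call was lost without ntu2_KO replicate 1 or 2 or without ntu_WT replicate 2 or 3, with an adjusted p of up to 0.0807.

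The genes around serine, folate-bound carbon units and methyl transfer formed the main group among the small changes. This list of 20 genes was put together after the values had been seen, so its count describes the called genes and is no independent evidence. Of the 20, 10 were higher and 0 lower at the threshold, against 0.448% higher and 0.31% lower of all genes. The median log2 fold change was 0.31, against 0.00 over all genes. In 13 of the 20 the ntu2_KO libraries were all above the ntu_WT libraries, against 6.75% of all genes. The rises were 1.23-fold to 1.62-fold.

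At the start of the route, ser3 encodes the dehydrogenase that begins serine synthesis from 3-phosphoglycerate. It had 783.2, 752.2 and 718.7 CPM in ntu2_KO, against 535.7, 501.8 and 481.6 CPM in ntu_WT (log2 fold change 0.57 ± 0.06, edgeR adjusted p 8.86e-05). The lowest ntu2_KO library thus exceeded the highest ntu_WT library. ser1 and ser2, the later enzymes of serine synthesis, had log2 fold changes of 0.06 ± 0.06 and 0.05 ± 0.06 and did not pass.

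Serine hydroxymethyltransferase moves a carbon from serine to folate. shm1 had 2171, 2174 and 1984 CPM in ntu2_KO, against 1811, 1662 and 1647 CPM in ntu_WT (log2 fold change 0.31 ± 0.06, edgeR adjusted p 0.028), while its relative shm2 had -0.02 ± 0.05. The glycine cleavage complex, which also feeds folate, had its P subunit gene gcv2 at 0.32 ± 0.07 (adjusted p 0.0498) and its T subunit gene gcv1 at 0.30 ± 0.06 (adjusted p 0.0175). Its H subunit gene gcv3 had 0.23 ± 0.06 with groups apart, but an adjusted p of 0.0792. thf1, a trifunctional folate enzyme, rose by 0.32 ± 0.06 (adjusted p 0.0199).

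These 4 called genes of the folate steps depended on single libraries. shm1 lost its call without ntu2_KO replicate 1 or 2 or ntu_WT replicate 2 or 3 (adjusted p up to 0.234). gcv1 lost it without ntu2_KO replicate 2 or ntu_WT replicate 2 or 3 (up to 0.139), and thf1 without ntu_WT replicate 1 or 3 (up to 0.156). gcv2 kept it only without ntu2_KO replicate 3 (up to 0.32 without the others).

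The called genes of the methionine cycle kept their calls with each library left out. met26, the methionine synthase that methylates homocysteine, is among the most abundant messages, with 7019, 6807 and 6390 CPM in ntu2_KO, against 5289, 4973 and 5006 CPM in ntu_WT (log2 fold change 0.40 ± 0.06, edgeR adjusted p 0.000919). sam1, the S-adenosylmethionine synthetase, had 2303, 2545 and 2095 CPM in ntu2_KO, against 1492, 1406 and 1392 CPM in ntu_WT (0.69 ± 0.09, adjusted p 0.00136). SPBC8D2.18c, the adenosylhomocysteinase that clears the product of methylation, had 2041, 2202 and 2064 CPM in ntu2_KO, against 1558, 1485 and 1452 CPM in ntu_WT (0.49 ± 0.06, adjusted p 0.000281). In all 3 the lowest ntu2_KO library exceeded the highest ntu_WT library.

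The enzymes that methylate phosphatidylethanolamine to phosphatidylcholine rose too. cho2, the first of them, had 393.5, 391.6 and 392.8 CPM in ntu2_KO, against 303.9, 292.2 and 285.3 CPM in ntu_WT (log2 fold change 0.42 ± 0.06, edgeR adjusted p 0.000727). cho1, which adds the later methyl groups, had 168.4, 160.7 and 154.7 CPM in ntu2_KO, against 125, 105 and 106.8 CPM in ntu_WT (0.52 ± 0.08, adjusted p 0.00136). Both, like ser3, were called with any library left out. pps1, the phosphatidylserine synthase upstream of them, had 0.33 ± 0.08 and missed the threshold (adjusted p 0.0749), with groups apart.

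**Figure D3:**
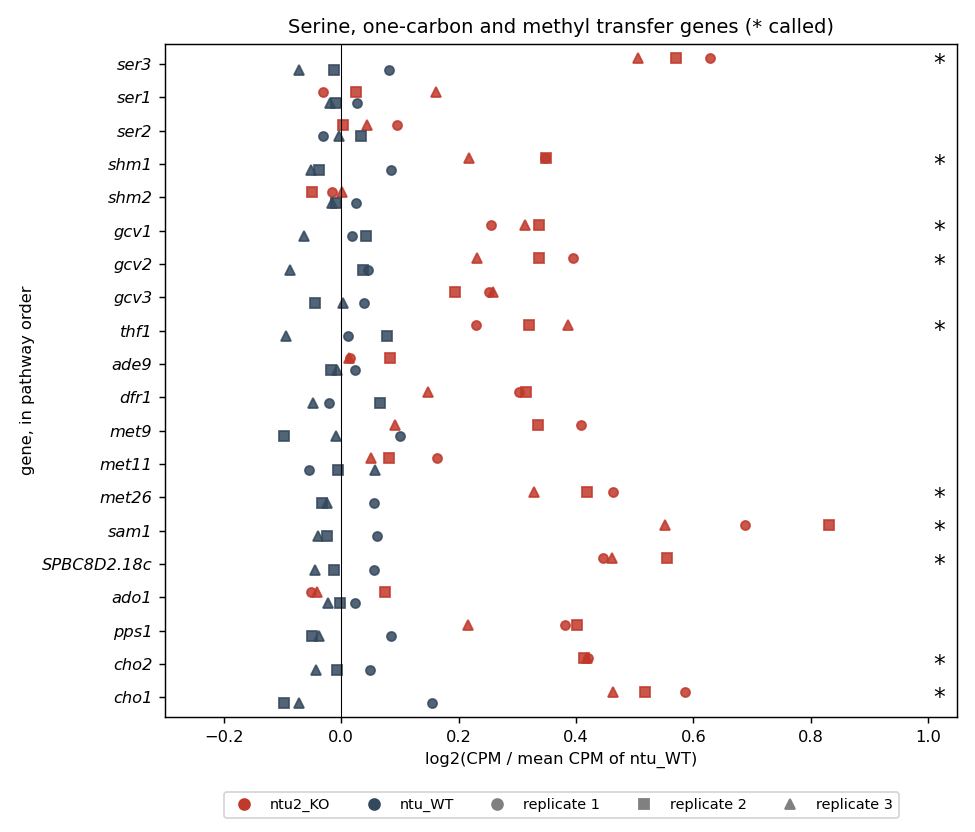
Log2 of CPM over the mean CPM of ntu_WT for the 20 genes of the serine, carbon unit and methyl transfer list, with ntu2_KO (red) above ntu_WT (dark blue) in each row and replicates as circles, squares and triangles. Stars mark the 10 called genes. Red points lie right of all blue points in 13 genes, while ser1, ser2, shm2, ade9, met11 and ado1 have overlapping groups near 0.

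Lists of neighbouring pathways held few further calls. Of 20 genes of sulfur assimilation and the methionine cycle, 4 were higher and 0 lower, against 0.448% and 0.31% of all genes. The 4 were met26, sam1, cho1 and cho2, which the list above shares, and the median log2 fold change was 0.11. Of 58 genes of amino acid synthesis, only ser3 passed, and the median was 0.05. None of the 10 purine synthesis genes passed, with a median of -0.01.

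The remaining higher genes fall in no common function. gdt1, a GDT1-like membrane protein, had 100.6, 46.9 and 77.4 CPM in ntu2_KO, against 22, 21.3 and 19.8 CPM in ntu_WT (log2 fold change 1.80 ± 0.28, edgeR adjusted p 0.0431). Its groups were far apart, but its ntu2_KO libraries differed among themselves, and its call was lost without ntu2_KO replicate 3 or any of the 3 ntu_WT libraries (adjusted p up to 0.263). SPAC26H5.09c, an oxidoreductase, had 378.4, 353.4 and 300.8 CPM in ntu2_KO, against 217.5, 160.4 and 185.1 CPM in ntu_WT (0.87 ± 0.11, adjusted p 0.00274), and kept its call with any library left out. cdt1, which licenses replication origins, had 58.3, 57 and 48.8 CPM in ntu2_KO, against 43.4, 32.3 and 34.7 CPM in ntu_WT (0.57 ± 0.12, adjusted p 0.0307), and lost its call without ntu2_KO replicate 1 or 2 or ntu_WT replicate 2 or 3 (up to 0.269).

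SPAC1039.02, annotated as a phosphatase, rose by 0.71 ± 0.12 (edgeR adjusted p 0.0409), but kept its call only without ntu2_KO replicate 3 (up to 0.248 without the others). The retrotransposon gene Tf2-7 rose by 0.62 ± 0.08 (adjusted p 0.000281) with any library left out. Its 31-base sequences all (100%) occur elsewhere in the reference genome, so reads of its copies cannot be assigned to it with certainty. Of the 8 Tf2 genes tested it was the only 1 that passed, and the list medians were 0.79, -0.14 and 0.45 in ntu2_KO replicates 1, 2 and 3. The enzyme genes uro1 (uricase, 0.51 ± 0.11), SPCC663.08c (a short chain dehydrogenase, 0.76 ± 0.14) and SPAC56E4.03 (an aromatic aminotransferase, 0.27 ± 0.06) also passed, as did SPBPJ4664.02, a glycoprotein gene (0.59 ± 0.11) with 71.9% of its 31-base sequences present elsewhere. These 4 lost their calls without between 3 and 5 of the 6 libraries, each without ntu2_KO replicate 1 and without ntu_WT replicates 2 and 3 among them, with adjusted p of up to 0.216, 0.0845, 0.399 and 0.198 in the order named.

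Among the lower genes was yhb1, the nitric oxide dioxygenase that detoxifies nitric oxide. It had 73.4, 69.2 and 69.2 CPM in ntu2_KO, against 177.1, 196 and 186.9 CPM in ntu_WT (log2 fold change -1.41 ± 0.07, edgeR adjusted p 2.9e-09). It was the only 1 of 22 genes of oxidant and nitric oxide defence that passed.

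pfl8 and isp4 were lower as well. pfl8, a cell surface glycoprotein gene, had 39.2, 40 and 26.5 CPM in ntu2_KO, against 91.5, 105.1 and 102.9 CPM in ntu_WT (log2 fold change -1.52 ± 0.13, edgeR adjusted p 2.93e-06). isp4, an oligopeptide carrier, had 34.8, 40 and 28.8 CPM in ntu2_KO, against 95.7, 86 and 83.6 CPM in ntu_WT (-1.35 ± 0.11, adjusted p 1.43e-06). In both the highest ntu2_KO library had under 0.5 times the level of the lowest ntu_WT library, and replicate 3 was the lowest.

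The flocculin list, adhesins and their regulators, held 15 tested genes, with 0 higher, 3 lower (against 0.31% of all genes) and a median log2 fold change of 0.03. Beside pfl8 these were pfl9 (-1.37 ± 0.23, edgeR adjusted p 0.00506), at 6.27, 5.45 and 6.41 CPM in ntu2_KO against 13.6, 17.4 and 15.8 CPM in ntu_WT, and mbx2, a MADS-box factor that activates flocculin genes (-0.54 ± 0.12, adjusted p 0.0498). pfl9 lost its call without ntu_WT replicate 2 (adjusted p 0.0674), and mbx2 kept it only without ntu2_KO replicate 3 (up to 0.301). pfl2, at 1348, 1353 and 1119 CPM in ntu2_KO against 1136, 1032 and 1043 CPM in ntu_WT, did not pass.

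mbx2 sits in a small cluster of called genes on chromosome II. The non-coding RNA SPNCRNA.1626 overlaps mbx2 and the uncharacterized gene SPBP8B7.32, both on the opposite strand. SPNCRNA.1626 was higher, with 72.4, 55.3 and 56.7 CPM in ntu2_KO, against 32.5, 33.2 and 33.8 CPM in ntu_WT (log2 fold change 0.87 ± 0.11, edgeR adjusted p 0.000281). SPBP8B7.32 was lower, with 107.9, 123.9 and 115.9 CPM in ntu2_KO, against 226.9, 230.5 and 236.6 CPM in ntu_WT (-0.99 ± 0.07, adjusted p 4.12e-07). The library kit keeps the strand, but no source used here states whether counting used it, so reads of the overlapping stretches may be shared.

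Other lower genes concerned transport and metabolism. pho841, a phosphate carrier, had 208.5, 219.5 and 227.9 CPM in ntu2_KO, against 323.6, 338.9 and 316.8 CPM in ntu_WT (log2 fold change -0.58 ± 0.06, edgeR adjusted p 1.63e-05). mal1, the maltase, had 26, 27.9 and 25.8 CPM in ntu2_KO, against 43.9, 51.5 and 45.5 CPM in ntu_WT (-0.82 ± 0.11, adjusted p 0.000727). Both kept their calls with any library left out.

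Less firm were sul2, a sulfate carrier (-0.88 ± 0.16, edgeR adjusted p 0.032), and cmt2, a catechol O-methyltransferase (-1.46 ± 0.30, adjusted p 0.03) at 4.7, 2.97 and 2.87 CPM in ntu2_KO against 10.3, 9.48 and 8.29 CPM in ntu_WT. sul2 was called without ntu2_KO replicate 1 but not without any other library (adjusted p up to 0.222). cmt2 was not called without ntu2_KO replicate 2 or any of the ntu_WT libraries (up to 0.188). pmr1, the calcium pump of the secretory route, had the smallest fall among the called genes, 150.5, 148.6 and 148.8 CPM in ntu2_KO against 182, 183.3 and 176.1 CPM in ntu_WT, a 1.21-fold difference that was lost in all cases but the one without ntu2_KO replicate 3 (up to 0.269).

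Of the 44 called genes, 8 lie within 100 kb of the ends of chromosomes I and II. They are gdt1, which was higher, and yhb1, pfl8, pfl9, cmt2, sul2, SPAC922.04 and SPNCRNA.1306, which were lower. Of the 87 tested genes of these end regions, 1 was thus higher and 7 lower, against 0.448% higher and 0.31% lower of all genes. In 5 all ntu2_KO libraries were above ntu_WT and in 21 below, against 6.75% and 6.51% of all genes, and the median log2 fold change was -0.15. tlh2, a helicase gene of the chromosome ends, named after its values were seen, had 21.3, 28.2 and 32.1 CPM in ntu2_KO, against 0.336, 0 and 0 CPM in ntu_WT. The groups did not overlap, yet at an adjusted p of 0.0803 in edgeR it missed the threshold, and elsewhere in the genome 93.6% of its 31-base sequences recur.

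Large gene groups showed no called gene in either direction. These were the 138 cytosolic ribosomal protein genes (median log2 fold change -0.04), 96 of ribosome biogenesis (-0.03), 43 of the respiratory chain (-0.02), 43 of the proteasome (-0.02), 11 histone genes (-0.02) and 27 of heterochromatin and RNA silencing (0.01). Heat shock and chaperone genes (22, median -0.13) and mating genes (20, -0.15) had none called either. None of the 11 genes of the phosphate list, which does not hold pho841, passed. Of them, 0 had a positive log2 fold change (median -0.17), against 2931 of the 5808 genes tested. In 5 all ntu2_KO libraries were below ntu_WT, against 6.51% of all genes. Against wt_WT the list had a median of 0.09, with 4 genes higher and 1 lower. Of all genes, 2.24% were higher and 1.54% lower against wt_WT. The 21 genes of hexose transport and glucose repression had the lowest median, -0.26, with 0 called. In this list fbp1, a glucose-repressed enzyme gene, had 15.4, 3.47 and 4.22 CPM in ntu2_KO and 39.5, 5.14 and 5.8 CPM in ntu_WT, so that replicate 1 was the highest in both groups. Of 862 non-coding RNAs, 4 were higher and 2 lower, near the shares of 0.448% higher and 0.31% lower of all genes.

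Among the broader lists, 2 of 181 transmembrane transporter genes were higher and 4 lower (median 0.04), against 0.448% higher and 0.31% lower of all genes. isp4 was the only 1 of 19 nitrogen starvation genes that passed (median 0.01). ntu2 and mbx2 were the only called genes among 115 DNA-binding transcription factors. No call fell among 23 cell wall genes (median 0.09), 21 wtf genes (0.22), 23 genes of the core stress response (-0.06), 18 of glycolysis (-0.07), 11 of mitochondrial ribosomes (0.08), 12 of telomeres (0.02), 8 of zinc (0.02) or 92 meiotically upregulated genes (0.01).

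**Figure D4:**
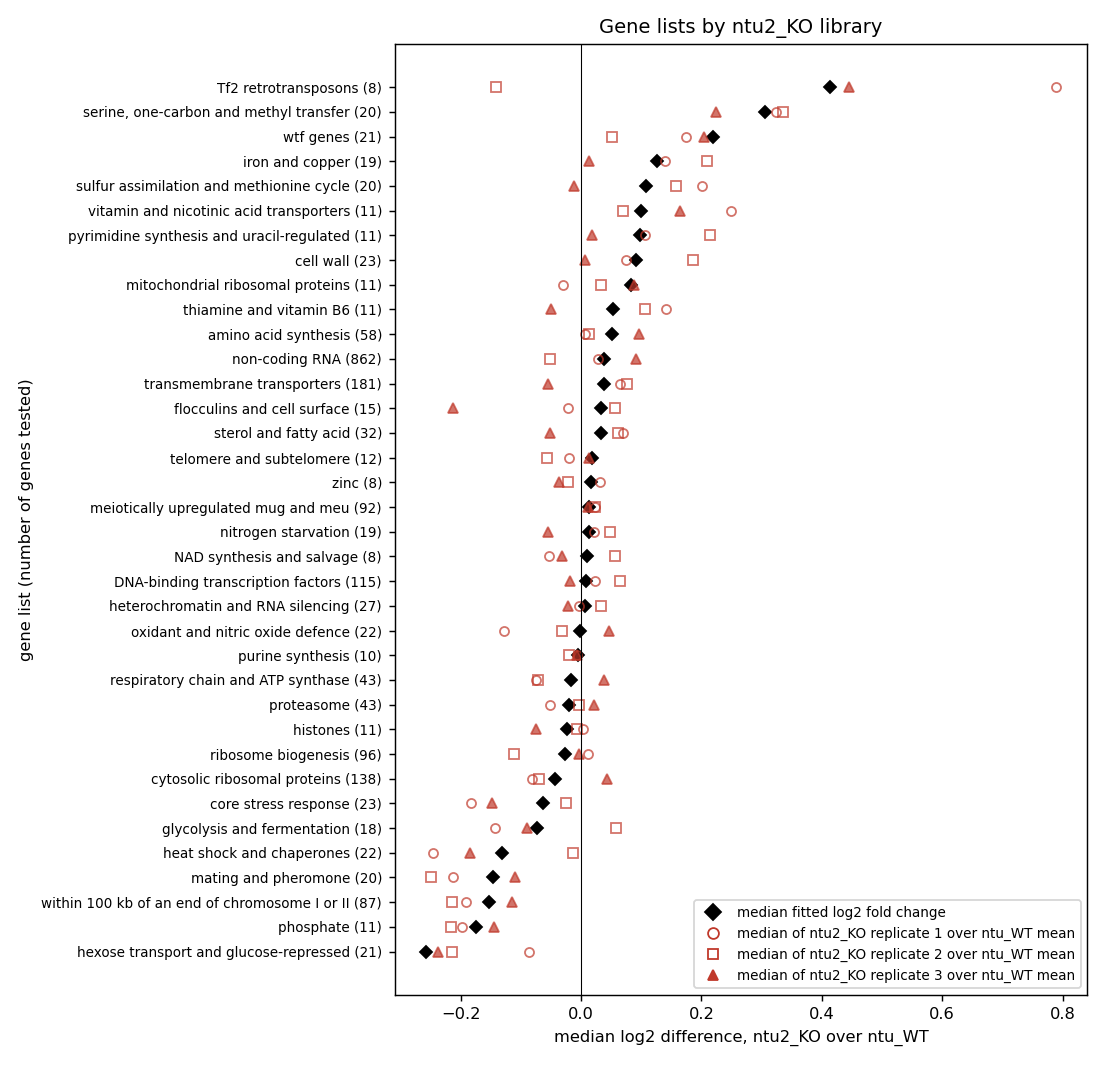
Median log2 difference of ntu2_KO over ntu_WT for the gene lists, with the number of genes tested in brackets. Black diamonds give the median fitted log2 fold change, and red symbols the median of each ntu2_KO replicate over the ntu_WT mean, replicate 3 filled. The replicates are spread most for the Tf2 genes, from -0.14 to 0.79, and replicate 3 lies nearer 0 than the other replicates for the iron and sulfur lists.

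More genes were called without ntu2_KO replicate 3 than with it, and few calls were lost. Leaving it out changes both the group mean and the estimate of the spread, and their parts were not tested. Without it, 195 of 5861 genes (3.33%) passed, 101 higher (1.72%) and 94 lower (1.6%), against 44 with it. Among the 195 were 41 of the 44, and the 3 that needed replicate 3 were gdt1, sul2 and SPNCRNA.953. In the 43 called genes other than ntu2, the median difference from the ntu_WT mean, signed by the called direction, was 0.66, 0.56 and 0.52 in replicates 1, 2 and 3. Replicate 3 was the nearest of the 3 to the wild type in 17 of them, replicate 2 in 14 and replicate 1 in 12. All 3 replicates entered the choice of these 43 genes, so these medians and counts are no independent evidence on replicate 3.

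Of the genes called without replicate 3, 194 were genes other than ntu2. In these the signed medians were 0.42, 0.41 and 0.10 in replicates 1, 2 and 3. The values of replicates 1 and 2 chose these genes and replicate 3 did not, although the ntu_WT libraries behind the mean entered the choice too. Replicate 3 was on the called side of the ntu_WT mean in 141 of the 194 (72.7%). Of the 195, 154 were not called once replicate 3 was added, a choice that its own values make in part. In 71 of these the 3 ntu2_KO libraries were all apart from the 3 ntu_WT libraries, against 13.3% of all genes. Replicates 1 and 2 had chosen these genes by their difference from ntu_WT, so that count is no independent evidence. Replicate 3 had the lowest share of ribosomal RNA counts of the 6 libraries, and the part of that in its values was not tested.

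**Figure D5:**
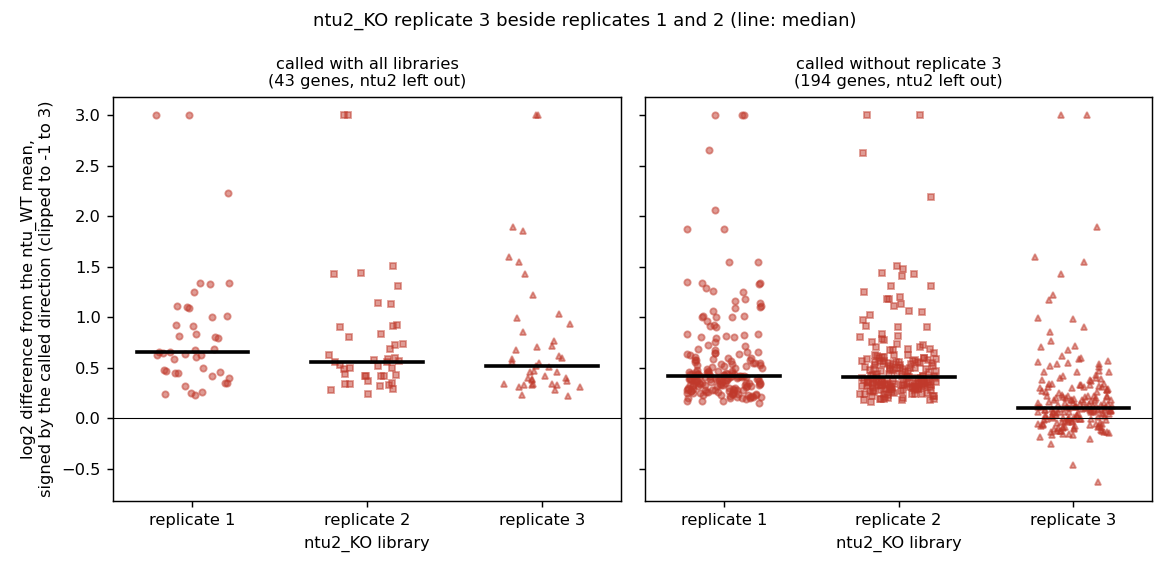
Log2 difference of each ntu2_KO library from the ntu_WT mean, signed by the called direction and clipped to -1 to 3, for 43 called genes without ntu2 (left) and for the 194 genes other than ntu2 called without replicate 3 (right). Each point is a gene and each line a median. The medians are 0.66, 0.56 and 0.52 on the left, where all 3 replicates entered the choice of genes. On the right they are 0.42, 0.41 and 0.10, where replicates 1 and 2 chose the genes.

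Some lists gained calls without replicate 3. Iron and copper genes gained 3 higher calls of 19, frp1, fip1 and str2, against 1.72% higher of all genes in that setting. frp1, an iron reductase, had 49.9, 58.5 and 20.9 CPM in ntu2_KO, against 16.8, 24.2 and 24.2 CPM in ntu_WT, so replicate 3 lay inside the wild-type range.

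Mating and pheromone genes gained 6 lower calls of 20 without replicate 3, byr1, gpa1, map1, map3, spk1 and ste4, against 1.6% lower of all genes. spk1, a MAP kinase of the pheromone pathway, had 23.2, 27.6 and 35.9 CPM in ntu2_KO, against 43.7, 40.6 and 39.8 CPM in ntu_WT. mei2, an RNA-binding protein of the switch to meiosis, belongs to the nitrogen starvation list and not to this one. It had 28.8, 44.4 and 79.5 CPM in ntu2_KO, against 79.7, 68.3 and 65.2 CPM in ntu_WT. Its replicate 3 was within the wild-type range, while that of spk1 was below it. The sterol and fatty acid list gained 5 higher calls of 32, against 1.72% higher of all genes. The ribosomal protein list gained 5 lower calls of 138, against 1.6% lower of all genes. Of the 20 genes of sulfur assimilation and the methionine cycle 8 were higher without replicate 3, against 4 with it. In the serine and methyl transfer list 13 of 20 were higher without replicate 3, against 10 with it. Over all genes, 101 were higher without replicate 3, against 26 with it.

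Every other library changed the calls too. Of the 44 genes, 24 remained called without ntu2_KO replicate 1 and 27 without replicate 2, and 28, 20 and 20 without ntu_WT replicates 1, 2 and 3. With each of the 6 libraries left out in turn, 18 genes were called every time. They are tna1, SPCC576.17c, sam1, ser3, met26, SPBC8D2.18c, cho1, cho2, SPAC26H5.09c, SPNCRNA.1626, Tf2-7, yhb1, isp4, pfl8, mal1, pho841, SPBP8B7.32 and ntu2.

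Many of the changes, small and large, were not called against the other wild type. Against the h- wild type wt_WT, which differs in mating type and ade6 allele and had deeper libraries of 11308010 to 11782294 counts, 223 of 5899 genes (3.78%) passed, 132 higher (2.24%) and 91 lower (1.54%). Of the 44 genes called against ntu_WT, 14 passed in the same direction and 3 in the opposite direction. Of the 9 that changed at least 2-fold against ntu_WT, 3 passed with at least 2-fold change against wt_WT. The carriers held, with tna1 at 5.08 ± 0.29 and SPCC576.17c at 4.47 ± 0.20 (edgeR adjusted p 3.04e-05 and 6.22e-06), as did yhb1 at -0.53 ± 0.07 and mal1 at -1.14 ± 0.10.

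Of the 10 called serine and methyl transfer genes, gcv2, SPBC8D2.18c and cho1 passed against wt_WT, and sam1, at a log2 fold change of 0.27 ± 0.08, had an adjusted p of 0.0981 in edgeR. wt_WT itself differed from ntu_WT in sam1 by 0.43 and in ser3 by 0.45, in the direction of ntu2_KO. For pfl8, isp4 and pfl9, ntu2_KO differed from wt_WT by 0.06, 0.28 and 0.25, none of which passed. The difference of cmt2, -0.59 ± 0.28, did not pass either (adjusted p 0.305 in edgeR). SPNCRNA.953, SPNCRNA.1626 and SPAC26H5.09c, higher than in ntu_WT, were lower than in wt_WT, by log2 fold changes of -0.71, -0.77 and -0.57.

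Set directly against ntu1_KO, ntu2_KO differed in 6 of 5808 genes (0.103%). Of the 44, these included only ntu2 and the non-coding RNA SPNCRNA.1561. SPNCRNA.1561 had 40.1, 34.7 and 35.1 CPM in ntu2_KO, 16.3, 13.6 and 16.5 CPM in ntu1_KO and 20, 25.9 and 22.1 CPM in ntu_WT, a log2 fold change over ntu1_KO of 1.25 ± 0.14 (edgeR adjusted p 0.000244). Over ntu_WT it was called at an adjusted p of 0.0267, a call lost without ntu2_KO replicate 1 or 2 or ntu_WT replicate 1 or 3 (up to 0.139). tna1 had 1430, 1294 and 1366 CPM in ntu1_KO, so ntu2_KO over ntu1_KO was -0.03 ± 0.08, and for SPCC576.17c it was 0.05 ± 0.09. sam1 differed by 0.14 ± 0.09 and yhb1 by -0.22 ± 0.08 between the deletions. A p that misses the threshold does not show that the deletions act alike, and both comparisons with the wild type share the ntu_WT libraries.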

How the data were processed

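Messenger RNA of 12 Schizosaccharomyces pombe libraries, 3 per group by their titles, was measured with the Illumina Stranded mRNA Prep kit, per the labels' protocols. The authors deposited 2 tables with 1 column per library, estimated counts by gene and TPM. The submitters' processing notes name Salmon 1.9.0 and the build ASM294v2. The sources used here give neither the way transcripts were summed to genes nor the use of strand. Of the non-zero deposited estimated counts, 91.2% are not whole, and they were rounded. All columns were mapped to samples.

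Gene names, products, overlaps and distances to chromosome ends came from the RefSeq annotation of ASM294v3, which matched 6727 of 6936 identifiers by locus tag and 16 by synonym. It is another build, so no coordinates or sequences are printed. Of each named gene, the share of 31-base sequences found elsewhere in that genome was counted.

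CPM used TMM-scaled library sizes. Genes were tested with edgeR 4.0.16 (quasi-likelihood, robust, filterByExpr with minimum count 10, R 4.3.3) in 1 fit of ntu2_KO, ntu1_KO and ntu_WT (9 libraries, 5808 genes), with Benjamini-Hochberg adjustment over all genes. A gene was called at an adjusted p under 0.05 with no fold minimum. The SE is the size of the log2 fold change divided by the square root of F. Comparisons with wt_WT used a fit of all 12 libraries. The test was tried on simulated data first.

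The genes named are ntu2, its neighbours, called genes, called or abundant members of the lists, and up to 10 genes called only without replicate 3. The members and lists were chosen with earlier results of these data known. ade6, tlh2, the serine and methyl transfer list and other list members given as examples of genes that did not pass were chosen after their values were seen. Alternatives, 18 in all, included DESeq2 1.42.0 and limma 3.58.1 on log2(TPM + 1). Replicates differed by more than sampling noise (chi-square per degree of freedom 3.15 to 15.9), which does not tell whether they are separate cultures. The n given counts 3 libraries per group. A gene list is not reported here.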

Additional observations from a re-analysis of the deposited data

Results flagged for a closer look

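Of the genes called in ntu2_KO over ntu_WT, 2 differed between the deletions when ntu2_KO was tested against ntu1_KO in the same fit. The deleted gene ntu2 had a log2 fold change in ntu2_KO over ntu1_KO of -2.305 (edgeR adjusted p 8.18e-08), lower in 3 of 3 ntu2_KO libraries. The non-coding RNA SPNCRNA.1561, which overlaps another non-coding RNA on the opposite strand, had a log2 fold change in ntu2_KO over ntu1_KO of 1.246 (edgeR adjusted p 0.000244), higher in 3 of 3 ntu2_KO libraries. Over ntu_WT its log2 fold change was 0.68 in ntu2_KO and -0.57 in ntu1_KO.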

How the results depend on the processing

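The counts against ntu_WT were 26 higher, 18 lower and 9 with at least 2-fold change. They came to 48, 34 and 15 with DESeq2, to 17 higher and 10 lower with limma on log2(TPM + 1), and to 12 and 8 at an adjusted p under 0.01. With all 12 libraries in the fit 44 were higher. With wt_WT as the control they were 132, 91 and 25. Without 1 library at a time they ran from 11 to 101 higher, 7 to 94 lower and 6 to 22 with at least 2-fold change, the highest each time without ntu2_KO replicate 3 (101, 94 and 22). The lowest were without ntu_WT replicate 3 (11 higher) and without ntu_WT replicate 2 (7 lower and 6 with at least 2-fold change). Deviations from the group means in same-numbered ntu2_KO and ntu_WT libraries had r of -0.02, 0.00 and 0.16. Pairs of unlike number ran from -0.21 to 0.18, so these values cannot decide whether the numbers pair the libraries. With the replicate number as a block, 51 were higher and 29 lower, and 42 of the 44 genes remained called. Under DESeq2 size factors, upper-quartile factors and no low-count filter 43 of the 44 remained called, under DESeq2 44, under limma 22, in a fit of the compared groups alone 33, and with libraries thinned to the smallest total 30. The alternatives that kept ntu_WT as the control turned the direction of no called gene.

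With wt_WT as the control, 16 of the 44 called genes changed direction, and the cause was not tested. Lower against ntu_WT, the log2 fold changes were 0.057 for pfl8, 0.254 for pfl9, 0.285 for isp4, 0.076 for pho841, 0.119 for SPNCRNA.1115 and 0.134 for pmr1. Higher against ntu_WT, they were -0.143 for SPAC56E4.03, -0.002 for gcv1, -0.054 for thf1, -0.162 for urg3, -0.137 for SPBPJ4664.02, -0.715 for SPNCRNA.953, -0.424 for SPAC1039.02, -0.774 for SPNCRNA.1626, -0.569 for SPAC26H5.09c and -0.497 for gdt1. Settings for the difference of ntu2_KO from ntu1_KO for SPNCRNA.1561, added after the data were seen, left it called with DESeq2, with the replicate block and without any 1 library, at log2 fold changes of 1.152 to 1.294. The smallest library, ntu2_KO replicate 1 with 3177147 counts, limits what low genes can show.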
